A study of Rattus norvegicus with 16 samples.

Results

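Reverse transcriptase genes of retroelements were followed in the kidneys of 16 rats. They were the genes that the deposited table annotates with the GO term for RNA-directed DNA polymerase activity and that had a mean of at least 10 estimated counts over the 16 rats. The rule held for 102 of the 35849 genes in the table, out of 169 with the term. The genes were chosen by their mean count over all rats, so their overall level is a description and carries no test. They were also picked with earlier results of these data known, so their shares set against all genes are a description too. The male Sprague Dawley rats were 6 to 8 weeks old at the start and fell into 4 groups of 4. The normal group received citrate buffer and a normal diet. The other groups carried diabetic nephropathy (DN), induced by streptozotocin at 45 mg/kg with a high-glucose and high-fat diet, and only animals with a blood glucose over 16.7 mmol/L went on. The DN group received vehicle. The SIN groups received sinomenine, an alkaloid of a medicinal vine, daily for 8 weeks at 20 mg/kg or 40 mg/kg. Streptozotocin kills the insulin-producing cells of the pancreas, and the diabetic rats were also on a rich diet.

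Retroelements are DNA repeats that copy themselves through RNA. LINE-1 elements encode a protein with an endonuclease and a reverse transcriptase, end in a poly(A) stretch, and are present in rodent genomes in very many related copies, most of them broken. Endogenous retroviruses are remnants of germline infections, and their pol gene encodes a reverse transcriptase together with ribonuclease H and an integrase. In adult tissues both kinds are kept quiet mainly by DNA methylation and repressive histone marks, although copies inside the introns or at the ends of active genes are also read through with their hosts.

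From the annotation, 88 of the 102 genes were of the LINE-1 type, with endonuclease terms, LINE-1 protein domains or a LINE-1 protein as best database match. Another 13 were of the retrovirus type, with terms for ribonuclease H or integration, retroviral protein domains or a retroviral match. The long gene MSTRG.16391 carried both kinds. The best match of 58 genes was one and the same rat protein, LRRGT00057, and 33 genes were 5130 to 5133 bases long. Many of the LINE-1-type genes are therefore close relatives. Of the nonzero values of the 102 genes 87.7% were not whole numbers, against 25.7% over all genes. This happens where reads that fit several copies are divided among them. Values of single copies are for that reason uncertain, and the copies are not independent of each other. Strand was not stated for the counting, so reads from an overlapping or antisense gene cannot be told apart from those of the element. Of the 102 genes 68 were Ensembl models and 34 were assembled from the reads. The best match was a host protein in 4 genes, namely AC239701.4 (ribosomal protein S6 kinase alpha-6), LOC102556339 (TFIID subunit 1-like), MSTRG.16793 (sorting nexin-6-like) and MSTRG.8280 (the kinase Nek7), although MSTRG.8280 also carries integrase domains.

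The levels were low. In CPM, the counts of a gene scaled to a common library size, mean levels ran from 0.471 to 25.8 with a median of 1.52, and the genes took 0.0313% of all estimated counts. The 5 most abundant genes held 32.6% of the summed level. Per kilobase of gene length, the mean level ran from 0.0917 to 18.0 CPM, the highest being AC239701.4, one of the genes that match a host protein. The mean count was 10.2 in AC243566.1 and 10.3 in AABR07029803.1, the genes just inside the limit, and 9.63 in AABR07025673.1 and 9.48 in AABR07003944.1, the genes just outside it. Tert, the reverse transcriptase of telomerase, which is no retroelement, was to be left out by the rule, but its entry in the table does not carry the term, so nothing was removed. It had mean levels of 1.60 CPM in normal, 1.85 in DN, 2.00 in SIN (20 mg/kg) and 2.17 in SIN (40 mg/kg) kidneys.

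Libraries held 19616312 to 25217030 estimated counts. The serial codes of the libraries in the sample records ran in order by group, so a batch that follows them and the condition cannot be told apart. The markers of proximal tubule, thick ascending limb, distal tubule, collecting duct and podocytes were present in every rat, and the 3 germ cell markers summed to at most 1.14 CPM. The summed level of 4 smooth muscle and stroma markers was 132 to 189 CPM in normal and 197 to 451 in DN rats, and 2 of the 4 were called higher in edgeR's quasi-likelihood test. The 2 thick ascending limb markers summed to 3402 to 4394 CPM in normal and 1881 to 3210 in DN rats, without overlap. Of these, 1 was called lower, as was 1 marker each of collecting duct, leukocytes and erythroid cells. The 2 collecting duct markers summed to 291 to 752 CPM in normal and 536 to 1368 in DN rats, a range that lay higher. The leukocyte sums and the erythroid sums overlapped between normal and DN rats. The share of counts in mitochondrially encoded genes was 11.1 to 12.3% in normal and 11.3 to 14.5% in DN rats. The part of these in the results was not tested. In whole tissue, fewer cells of a type and less RNA per cell cannot be told apart.

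The first comparison set DN against normal rats, which differ in streptozotocin, diet and disease at once. The parts of these cannot be told apart. The level was lower in DN. The summed level of all 102 genes was 422, 342, 517 and 485 CPM in the normal rats and 176, 193, 252 and 225 CPM in the DN rats. The groups did not overlap, and the mean fell from 441.5 ± 77.1 to 211 ± 33.8 CPM (SD, n = 4 each). Without a filter on low counts, the fitted log2 fold change was below 0 in 95 genes and above 0 in 7, with a median of -1.14, and among those that passed the filter it was below 0 in 90 and above 0 in 6, where 49.9% and 50.1% of all genes tested were.

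Of the 102 genes 96 passed the filter on low counts in this comparison. With edgeR's quasi-likelihood test and Benjamini-Hochberg adjustment over all genes, 43 of them were lower in DN at an adjusted p under 0.05 and 0 were higher. Among all 15775 genes tested, 10.8% were lower by this rule and 8.74% were higher. Of the 43, 41 had a log2 fold change of -1 or less, a size that 2.76% of all genes tested reached. In 42 genes every DN rat was below every normal rat, against 13.0% of all genes tested, and in 0 genes was every DN rat above, against 11.3%. At an unadjusted p under 0.05, 60 were lower and 0 higher by the same test, against 19.4% and 17.5% of all genes tested, or 36.9% in either direction. The median log2 fold change was -1.13, and that of all genes tested was 0.00. Many of the genes carry the same families' reads, so these counts describe the group and are no independent tests.

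The count of 43 ran from 12 to 49 when each rat was left out in turn. It was 12 without normal replicate 4, 16 without normal replicate 3 and 27 without normal replicate 1. Without DN replicate 1 it was 23, and without DN replicate 2 it was 19. The share of all genes called in the same fits is not given, so whether these genes changed more than others was not tested. The median log2 fold change stayed between -1.31 and -1.03 whichever rat of the 8 was left out.

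**Figure D1:**
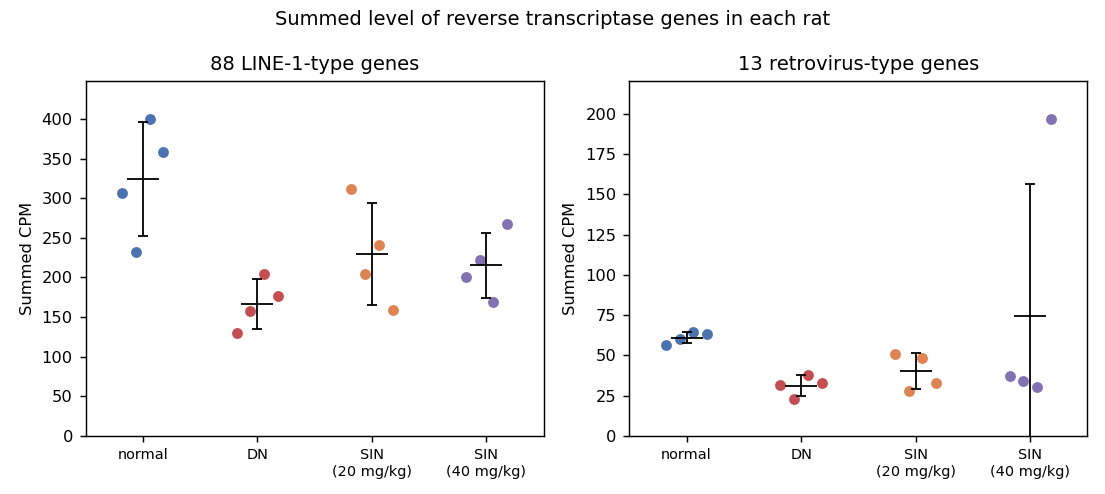
The summed level in CPM (vertical axis) of the 88 LINE-1-type genes (left) and the 13 retrovirus-type genes (right) is plotted for each rat as a point, by group, with a bar for the mean and SD of 4 rats. The LINE-1-type sum was 324 ± 72.2 in normal and 167 ± 31.5 CPM in DN rats, and SIN (40 mg/kg) replicate 4 stands at 197 CPM in the retrovirus-type sum.

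Genes of both types were among those called lower. Of the 84 LINE-1-type genes tested, 39 were called lower in DN, with a median log2 fold change of -1.14. Among those tested whose best match was LRRGT00057, 23 of 55 were called. By length, 26 of 56 LINE-1-type genes over 4500 bases and 13 of 28 shorter ones were called lower. Of the 11 retrovirus-type genes tested, 3 were called lower, and their median was -0.65. The difference between the types was not tested.

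The same measure was taken in other genes that resemble them in one respect. Other genes assembled from the reads had a median log2 fold change of -0.20 in DN, with 167 of 1436 called lower and 41 higher. Other Ensembl genes named after contigs had a median of -0.13, with 78 of 695 lower and 25 higher. Other genes over 4500 bases had a median of -0.13, with 356 of 1869 lower and 85 higher. Other genes with a mean of 10 to 100 counts had a median of -0.11, with 235 of 4057 lower and 96 higher, while the reverse transcriptase genes in that range had a median of -1.10 and 32 of 81 were lower. All of these leaned the same way as the reverse transcriptase genes, with medians nearer 0. The other assembled genes took 1.04 to 1.27% of counts in normal rats and 0.864 to 0.953% in DN rats, which did not overlap. The part of gene model, length or level in the decrease was not tested.

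**Figure D2:**
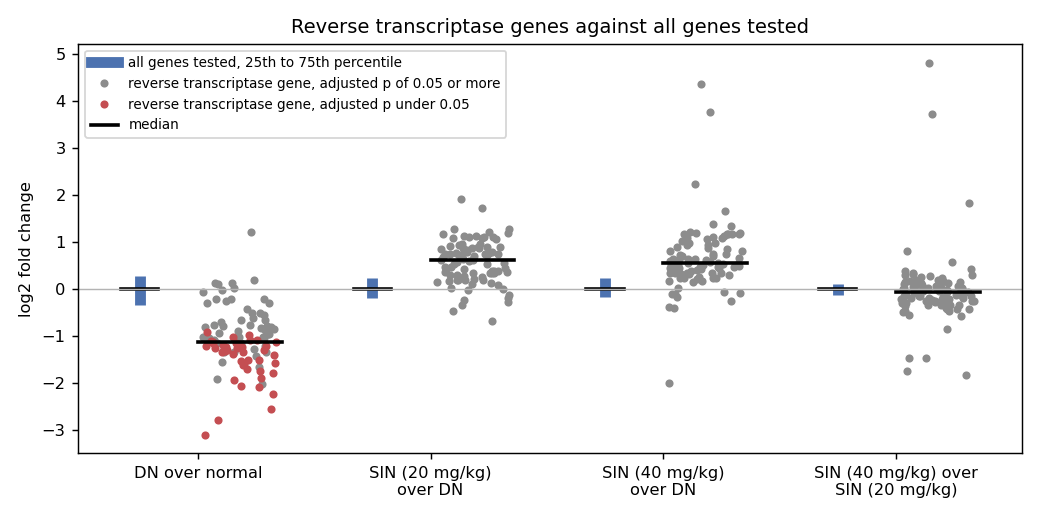
The log2 fold change (vertical axis) of each reverse transcriptase gene tested is plotted for the 4 comparisons, in red where the adjusted p was under 0.05, beside a blue bar from the 25th to the 75th percentile of all genes tested; black lines mark the medians. Only the comparison of DN with normal has red points, 43 of 96, and the medians are -1.13, 0.62, 0.56 and -0.06 from left to right.

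MSTRG.16391, the gene with both kinds of annotation, was the most abundant of the 102 and had the smallest adjusted p. Its level was 58.8, 49.9, 53.4 and 62.8 CPM in normal rats, 15.3, 12.6, 9.87 and 15.6 in DN rats, 25.1, 4.81, 21.5 and 16.6 in SIN (20 mg/kg) rats and 16, 12.7, 14.1 and 22.9 in SIN (40 mg/kg) rats. All 12 diabetic rats, treated or not, were below all 4 normal rats. The log2 fold change was -2.07 ± 0.16 (SE) in DN over normal, with an adjusted p of 0.000697 in edgeR's quasi-likelihood test, and 0.35 ± 0.40 and 0.31 ± 0.22 for the lower and the higher SIN dose over DN, which did not pass (adjusted p of 0.67 and 0.475).

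MSTRG.7194 was of the retrovirus type. Its level was 8.07, 8.88, 5.37 and 9.81 CPM in normal rats, 1.55, 1.52, 2.44 and 1.30 in DN rats, 4.35, 1.35, 3.94 and 2.49 in SIN (20 mg/kg) rats and 1.99, 2.20, 1.68 and 4.74 in SIN (40 mg/kg) rats. No diabetic rat reached the lowest normal rat. It fell by 2.23 on the log2 scale in DN (SE 0.27, adjusted p = 0.00324 in edgeR's quasi-likelihood test). The differences of 0.83 ± 0.38 and 0.66 ± 0.38 in the SIN groups over DN did not pass. A shorter gene with the same best protein match, MSTRG.16288, fell as well, with a log2 fold change of -2.80 and an adjusted p of 0.0182 by the same test. In the other gene with that match, MSTRG.8168, the log2 fold change of -0.21 ± 1.17 did not pass (adjusted p = 0.914 in edgeR's quasi-likelihood test). Both were named after their values were seen.

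Among the LINE-1-type genes, MSTRG.16348 was the second most abundant of the 102. It stood at 35.8, 22.0, 51.3 and 48.6 CPM in normal rats, 8.80, 19.0, 12.3 and 12.4 in DN rats, 20.5, 19, 16.3 and 12.9 in SIN (20 mg/kg) rats and 12.5, 17.8, 17.2 and 29.6 in SIN (40 mg/kg) rats. Normal and DN rats did not overlap, although normal replicate 2 came close to DN replicate 2. In DN the log2 fold change was -1.59 ± 0.30 with an adjusted p of 0.0107 in edgeR's quasi-likelihood test, and the SIN groups over DN gave 0.39 ± 0.23 and 0.57 ± 0.29, neither of which passed.

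MSTRG.13109, whose best match is a rat LINE-1 second open reading frame, measured 20.3, 21.8, 33.1 and 28.0 CPM in normal rats and 9.82, 13.7, 12.1 and 8.12 in DN rats, with a log2 fold change of -1.24 ± 0.21 (adjusted p = 0.00736 in edgeR's quasi-likelihood test). Its SIN (20 mg/kg) rats had 11.3, 6.80, 10.6 and 11.5 CPM and its SIN (40 mg/kg) rats 8.75, 12.7, 20.9 and 28.2. In the SIN (40 mg/kg) group replicates 3 and 4 were high and replicates 1 and 2 lay within the DN range. The short gene MSTRG.6589 had 14.0, 10.7, 16.3 and 14.5 CPM in normal rats and 5.40, 5.30, 7.11 and 7.45 in DN rats, without overlap, and fell by 1.14 on the log2 scale (SE 0.18, adjusted p = 0.00661 by the same test).

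AABR07064257.1 was the most abundant Ensembl model among those called, with an endonuclease and reverse transcriptase as best match. Its level was 20.7, 12.4, 20.6 and 21.5 CPM in normal rats, 7.03, 5.20, 9.46 and 9.04 in DN rats, 18.9, 10.9, 14.5 and 8.66 in SIN (20 mg/kg) rats and 12, 11.7, 5.83 and 12.1 in SIN (40 mg/kg) rats. Normal and DN rats did not overlap, and 3 rats of each SIN group were above every DN rat. DN over normal gave a log2 fold change of -1.29 ± 0.23 (adjusted p = 0.00956 in edgeR's quasi-likelihood test), and SIN (20 mg/kg) over DN gave 0.79 ± 0.27, which did not pass at an adjusted p of 0.271.

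Long copies that match LRRGT00057 were each low. AABR07069524.1 had 2.02, 1.41, 2.18 and 1.68 CPM in normal rats, 0.619, 0.303, 0.588 and 0.384 in DN rats, 1.64, 0.437, 1.21 and 0.282 in SIN (20 mg/kg) rats and 1.10, 1.08, 1.26 and 0.957 in SIN (40 mg/kg) rats. The SIN (40 mg/kg) rats lay between the DN and the normal rats without touching either, while the SIN (20 mg/kg) rats spread across the DN range and into the normal range. The gene fell by 1.93 on the log2 scale in DN (SE 0.33, adjusted p = 0.00854 in edgeR's quasi-likelihood test), and the difference of 1.21 ± 0.34 in SIN (40 mg/kg) over DN had an adjusted p of 0.196.

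AABR07039778.1, AABR07062694.2, AABR07015639.1 and AC111632.2, with the same best match, had log2 fold changes of -1.79, -1.39, -1.52 and -1.62 in DN. The normal rats of AABR07039778.1 had 2.1 to 3.33 CPM and its DN rats 0.606 to 1.11. In AABR07062694.2 the values were 2.29 to 4.15 CPM in normal rats and 1.15 to 1.36 in DN rats. The other pair gave 2.54 to 5.5 against 0.913 to 1.77 CPM in AABR07015639.1 and 3.56 to 5.43 against 0.960 to 2.58 CPM in AC111632.2, so that normal and DN rats overlapped in none of the 4. All 4 were called in edgeR's quasi-likelihood test, with adjusted p-values from 0.00704 to 0.0154, but AC111632.2 was not called without normal replicate 4 (adjusted p of 0.0523).

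The largest decrease by fold among the genes called was in MSTRG.18417, a scarce LINE-1-type gene with 0.985, 0.780, 1.48 and 1.72 CPM in normal rats and 0.177, 0, 0.0905 and 0.288 in DN rats. Its log2 fold change was -3.10 ± 0.63 with an adjusted p of 0.0145 in edgeR's quasi-likelihood test, and it was not called without normal replicate 4 (adjusted p of 0.0511). It was too low for the tests of the SIN groups.

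MSTRG.21220, a retrovirus-type gene that matches an endogenous retrovirus group K polymerase, had 16, 26.8, 36.5 and 28.3 CPM in normal rats, 14.3, 10.8, 12.9 and 14.9 in DN rats, 23.3, 9.06, 21.8 and 13 in SIN (20 mg/kg) rats and 17.6, 14.2, 15.9 and 21.3 in SIN (40 mg/kg) rats. Normal and DN rats did not overlap, but only narrowly so for normal replicate 1. DN over normal gave -1.03 on the log2 scale, with an SE of 0.23 (adjusted p = 0.018 in edgeR's quasi-likelihood test). The call was lost without normal replicate 3 (0.0517), normal replicate 4 (0.0574) or DN replicate 2 (0.0521) and with a replicate block (0.0521), these being adjusted p-values.

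**Figure D3:**
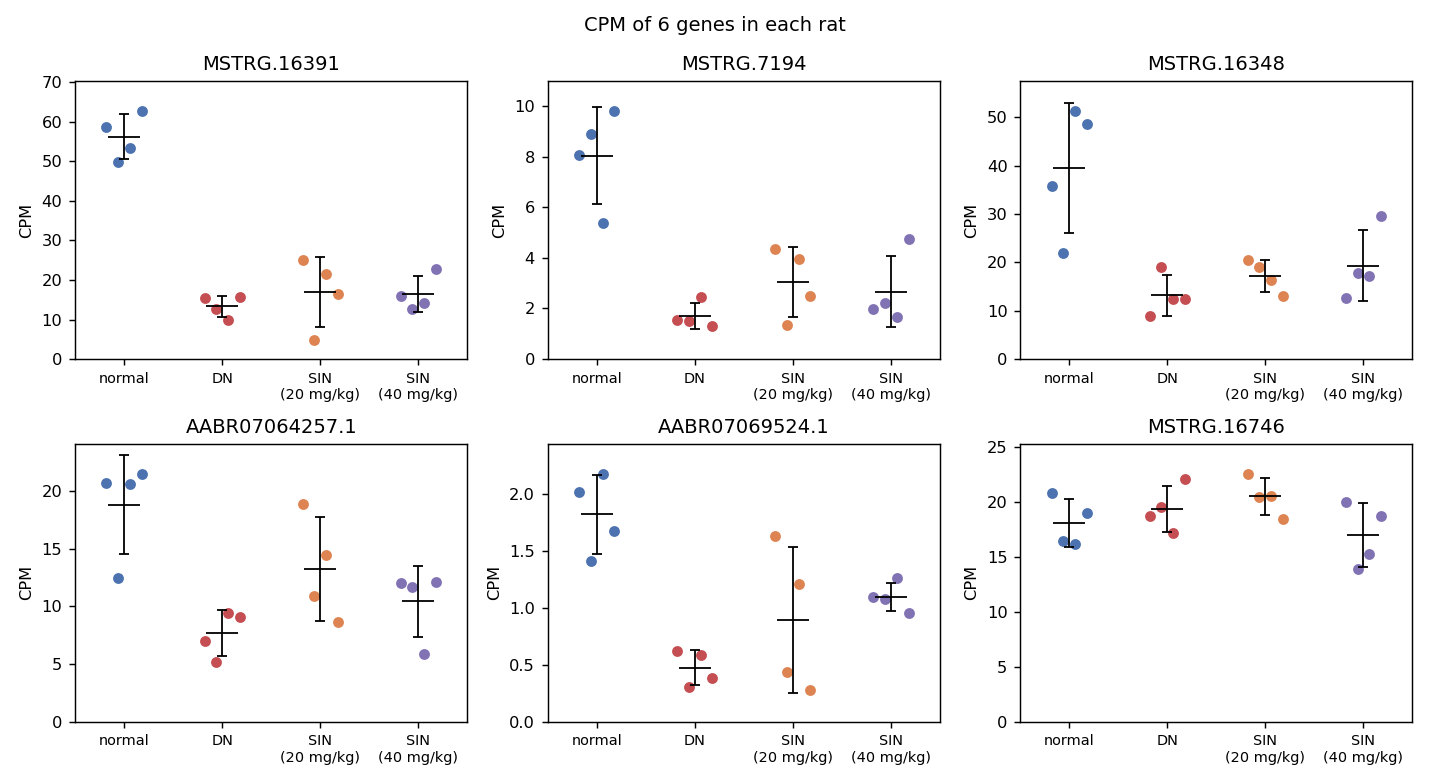
The level in CPM (vertical axis, from 0) of 6 genes is plotted for each rat as a point, by group, with a bar for the mean and SD of 4 rats. In MSTRG.16391 and MSTRG.7194 every diabetic rat lies below every normal rat, whereas MSTRG.16746 runs from 13.9 to 22.6 CPM over the 16 rats.

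Not every gene was lower. MSTRG.16746, the third in abundance and matched to a mouse LINE-1 second open reading frame, had 20.8, 16.4, 16.2 and 19.0 CPM in normal rats, 18.8, 19.6, 17.2 and 22.1 in DN rats, 22.6, 20.5, 20.6 and 18.5 in SIN (20 mg/kg) rats and 20.1, 13.9, 15.3 and 18.8 in SIN (40 mg/kg) rats. All groups overlapped. Its log2 fold change in DN was 0.10 ± 0.13, and leaving out any rat kept it between 0.03 and 0.17. All its values were whole numbers, as were those of MSTRG.2134, MSTRG.16793, MSTRG.12767, MSTRG.19934, MSTRG.8244 and MSTRG.39. Their log2 fold changes in DN were -1.20, -0.65, -0.22, -0.30, -1.41 and -0.25, in that order. Only MSTRG.8244 was called (adjusted p = 0.0281 in edgeR's quasi-likelihood test). The other 95 genes had at least 1 value that was not whole. This split was made after the values were seen, and the part of divided reads was not tested. AC239701.4, with the S6 kinase match, had 8.19 to 12 CPM in normal rats and 6.37 to 18.1 in DN rats, with a log2 fold change of 0.02. Of the other genes that match a host protein, LOC102556339 was called lower (-1.12, adjusted p = 0.0269 in edgeR's quasi-likelihood test), while MSTRG.16793 (-0.65) and MSTRG.8280 (-1.03) did not pass; these 4 were named for their annotation after the values were seen.

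The largest difference toward a higher level in DN was in MSTRG.1562, which was not called. It had 4.18, 4.39, 10.3 and 3.31 CPM in normal rats, 2.21, 14.3, 14.6 and 20.8 in DN rats, 12.3, 26.9, 3.68 and 2.54 in SIN (20 mg/kg) rats and 3.14, 2.62, 4.11 and 2.97 in SIN (40 mg/kg) rats. The DN and SIN (20 mg/kg) groups each held both high and low rats, and the SIN (40 mg/kg) rats were all low. In DN over normal the log2 fold change was 1.22 ± 0.58, with an adjusted p of 0.154 in edgeR's quasi-likelihood test, and 0.0348 without DN replicate 1.

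**Figure D4:**
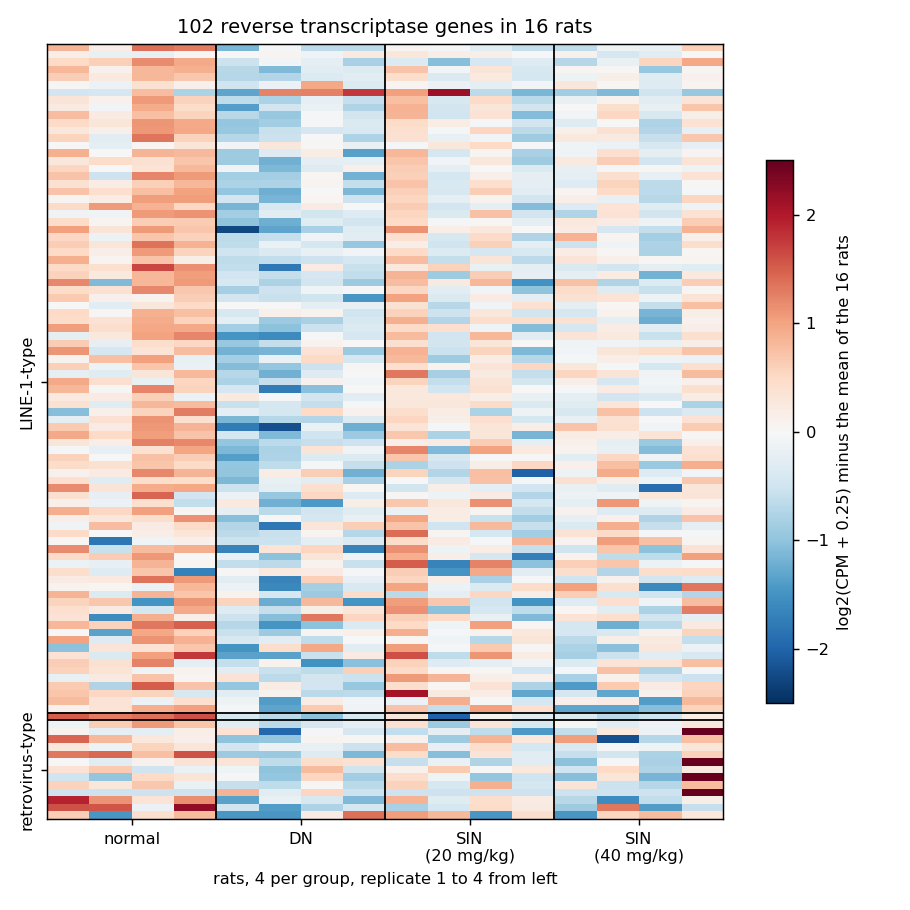
Each row is 1 of the 102 genes and each column 1 of the 16 rats, coloured by log2(CPM + 0.25) minus the mean of that gene over the 16 rats, with LINE-1-type genes above, the gene of both types between the lines and retrovirus-type genes below. The normal columns are mostly red and the DN columns mostly blue, and 4 retrovirus-type rows are dark red in SIN (40 mg/kg) replicate 4.

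Rats of 1 group differed from each other across the genes. Normal replicate 2 had the lowest level of the normal rats in 61 of the 102 genes, and normal replicate 3 the highest in 49. In the DN group replicate 2 was lowest in 39 genes and replicate 3 highest in 47. In the SIN (20 mg/kg) group replicate 1 was highest in 65 genes and replicate 4 lowest in 51. Among the SIN (40 mg/kg) rats replicate 4 was highest in 51 and replicate 3 lowest in 57.

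The next comparisons asked whether sinomenine moved these genes in diabetic kidney. With all rats, no gene passed the adjusted test at either dose in edgeR's quasi-likelihood test, and the level was on average above that of DN and below that of normal. Both comparisons use the same 4 DN rats as the comparison with normal, so a chance low in those rats would lower one comparison and lift the others. The summed level of the 102 genes was 388, 238, 311 and 209 CPM in SIN (20 mg/kg) rats and 254, 269, 214 and 487 CPM in SIN (40 mg/kg) rats, against 176 to 252 in DN. In the SIN (20 mg/kg) group replicates 1 and 3 were above all DN rats and the others within their range. In the SIN (40 mg/kg) group replicate 3 was within the DN range, replicates 1 and 2 were just above it, and replicate 4 owed its place in part to 4 retrovirus-type genes described further on. For the LINE-1-type genes alone the sums were 312, 205, 241 and 159 CPM at 20 mg/kg and 201, 222, 169 and 267 CPM at 40 mg/kg, against 129 to 204 in DN and 232 to 400 in normal rats.

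For SIN (20 mg/kg) over DN, 88 of the 102 genes passed the filter. In edgeR's quasi-likelihood test 0 of them, and 0.0% of the 15724 genes tested, had an adjusted p under 0.05, and the smallest adjusted p among them was 0.27. DESeq2 also called 0. At an unadjusted p under 0.05, 18 were higher and 1 lower, against 9.2% and 6.24% of all genes tested, or 15.4% in either direction. The lower one was MSTRG.11712, of the retrovirus type (-0.68 ± 0.30). The SIN (20 mg/kg) rats all lay above the DN rats in 7 genes and below them in 0, against 4.87% and 3.98% of all genes tested. The log2 fold change was above 0 in 80 of the 88, against 49.0%, with a median of 0.62 where that of all genes was -0.01. Without the filter it was above 0 in 93 of the 102 genes. The unadjusted count of 19 was 5 without SIN (20 mg/kg) replicate 1, 10 without replicate 3, 36 without replicate 2, 31 without replicate 4, 11 without DN replicate 1 and 12 without DN replicate 2.

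For SIN (40 mg/kg) over DN, 87 genes passed the filter. Again 0 of them, and 0.0% of the 15530 genes tested, had an adjusted p under 0.05 in edgeR's quasi-likelihood test, and the smallest adjusted p was 0.188, in MSTRG.1562. DESeq2 called 1 gene, the same MSTRG.1562. At an unadjusted p under 0.05, 28 were higher and 1 lower, against 9.9% and 7.21% of all genes tested, or 17.1% in either direction. The SIN (40 mg/kg) rats all lay above the DN rats in 9 genes and below them in 0, against 5.76% and 4.91%. The log2 fold change was above 0 in 78 of the 87, against 51.0%, with a median of 0.56 where that of all genes was 0.01. The unadjusted count of 29 was 11 without SIN (40 mg/kg) replicate 4, 18 without replicate 2, 13 without DN replicate 1 and 15 without DN replicate 2.

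The genes with the smallest unadjusted p in these comparisons were LINE-1-type genes. AABR07058169.2 had 1.22, 1.07, 2.58 and 2.47 CPM in normal rats, 0.354, 0.505, 0.543 and 0.577 in DN rats, 1.08, 1.11, 1.56 and 0.753 in SIN (20 mg/kg) rats and 1.05, 0.749, 0.373 and 1.05 in SIN (40 mg/kg) rats. All SIN (20 mg/kg) rats were above all DN rats, with a log2 fold change of 1.18 ± 0.35 and an adjusted p of 0.27 in edgeR's quasi-likelihood test. Its decrease in DN, -1.89 ± 0.40, had an adjusted p of 0.0154 by the same test. That call was lost without normal replicate 3 (0.0505) or normal replicate 4 (0.0539).

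MSTRG.2249 had 4.41, 2.59, 4.50 and 3.45 CPM in normal rats, 0.221, 0.657, 1.04 and 1.59 in DN rats, 4.69, 2.31, 2.47 and 2.02 in SIN (20 mg/kg) rats and 2.36, 1.45, 1.26 and 3.92 in SIN (40 mg/kg) rats. The SIN (20 mg/kg) values lay above all DN rats, 3 of them below and 1 above the normal range, while the SIN (40 mg/kg) values overlapped with DN. It fell by 2.09 on the log2 scale in DN (SE 0.48, adjusted p = 0.0198 in edgeR's quasi-likelihood test), a call lost without normal replicate 3 (0.0585), normal replicate 4 (0.0549) or DN replicate 2 (0.0554). The differences of 1.71 ± 0.52 at 20 mg/kg and 1.38 ± 0.56 at 40 mg/kg did not pass, with adjusted p-values of 0.27 and 0.262.

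MSTRG.39 did not differ detectably between DN and normal, with 0.657, 0, 0.568 and 0.707 CPM in normal rats and 0.354, 0.354, 0.498 and 0.433 in DN rats. It had 0.947, 0.755, 0.606 and 1.32 CPM in SIN (20 mg/kg) rats and 0.681, 1.55, 1.21 and 0.670 in SIN (40 mg/kg) rats. All 8 SIN rats were above all DN rats. The log2 fold changes over DN were 1.14 ± 0.37 and 1.33 ± 0.39, with adjusted p-values of 0.27 and 0.20 in edgeR's quasi-likelihood test.

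AABR07053179.1, a long copy that matches LRRGT00057, had 3.89, 2.1, 3.45 and 2.25 CPM in normal rats, 1.19, 1.21, 1.31 and 1.44 in DN rats, 3.57, 1.23, 2.57 and 1.18 in SIN (20 mg/kg) rats and 2.57, 2.20, 2.05 and 2.1 in SIN (40 mg/kg) rats. The SIN (40 mg/kg) rats were close together and above all DN rats, while the SIN (20 mg/kg) rats divided into a high and a low pair. At 40 mg/kg the log2 fold change was 0.80 ± 0.23 with an adjusted p of 0.199 in edgeR's quasi-likelihood test. Its decrease in DN, -1.18 ± 0.28, had an adjusted p of 0.0216, which rose to between 0.0521 and 0.0652 without normal replicate 1 or 3 or DN replicate 1 or 2, and to 0.062 with a replicate block.

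In MSTRG.1562 the comparison went the other way. Its log2 fold change in SIN (40 mg/kg) over DN was -1.99 ± 0.52, with an adjusted p of 0.188 in edgeR's quasi-likelihood test, 0.00576 by DESeq2, and 0.0183 by edgeR without DN replicate 1, the DN rat with a low value. SIN (20 mg/kg) over DN gave -0.18 ± 0.75.

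Of the 43 genes lower in DN, 41 were tested in each SIN comparison. The log2 fold change over DN was above 0 in 40 of them at 20 mg/kg and in 41 at 40 mg/kg, and 14 and 19 had an unadjusted p under 0.05. The DN rats that chose the 43 stand in both of these counts, so the counts are a description. Over all 102 genes the group mean was lowest in DN in 83 and highest in normal in 77, and the SIN (20 mg/kg) mean was below the normal mean in 83 and the SIN (40 mg/kg) mean in 91. The SIN groups and the normal group were not compared by a test.

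Between the doses, SIN (40 mg/kg) over SIN (20 mg/kg), 93 genes passed the filter and 0 had an adjusted p under 0.05 in edgeR's quasi-likelihood test, against 0.00639% of the 15657 genes tested, with DESeq2 also at 0. At an unadjusted p under 0.05, 3 were higher and 2 lower, against 2.41% and 2.57%, or 4.98% in either direction. The median log2 fold change was -0.06. The rats at 40 mg/kg all lay below those at 20 mg/kg in 3 genes and above them in 0, against 1.61% and 1.69% of all genes tested. One was AABR07034592.1, with 1.25, 1.03, 0.555 and 0.518 CPM at 20 mg/kg and 0.157, 0.515, 0.280 and 0.239 at 40 mg/kg, a log2 fold change of -1.48 ± 0.48 and an adjusted p of 0.961 by the same test. Its normal rats had 0.375 to 0.917 CPM and its DN rats 0.202 to 0.663. The standard error of a log2 fold change between the doses had a median of 0.40 over the genes tested, so moderate differences in single genes were not detectable with these rats.

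The retrovirus-type genes held 1 animal that stood apart. MSTRG.15005, matched to an endogenous retrovirus group K polymerase, had 80.1 CPM in SIN (40 mg/kg) replicate 4 and 0.152 to 1.77 CPM in the other 15 rats. In the same rat MSTRG.11463 had 35.5 CPM, MSTRG.11712 had 23.1 CPM and MSTRG.14409 had 12.8 CPM. Elsewhere MSTRG.11463 reached at most 1.31 CPM, MSTRG.11712 at most 3.89 CPM and MSTRG.14409 at most 0.398 CPM, being listed at 0 in 12 of the 15 other rats. MSTRG.14409 met the limit of a mean of 10 counts only through SIN (40 mg/kg) replicate 4. Its place among the genes and in the retrovirus-type sums therefore rests on that animal. MSTRG.15005, MSTRG.11463 and MSTRG.14409 share their best match, an endogenous retrovirus group K polymerase of a kangaroo rat, with MSTRG.21220, which was at 21.3 CPM in that rat. These 4 genes summed to 151 CPM in that rat and to 2.22 to 6.75 CPM in the others. The last 3 were named after their values were seen, and the reads of several fragments of 1 element can be counted in more than 1 of these genes.

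**Figure D5:**
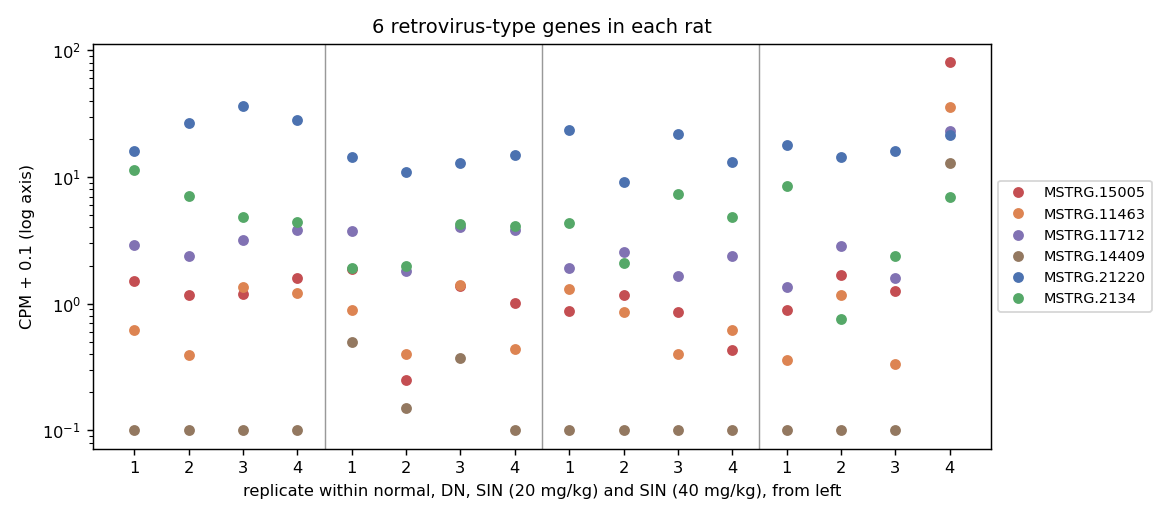
CPM plus 0.1 (vertical log axis) of 6 retrovirus-type genes is plotted for each of the 16 rats, replicate 1 to 4 of each group from left to right. MSTRG.15005, MSTRG.11463, MSTRG.11712 and MSTRG.14409 stand at 80.1, 35.5, 23.1 and 12.8 CPM in the last rat, SIN (40 mg/kg) replicate 4, while MSTRG.21220 and MSTRG.2134 there lie within the range of the others.

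That rat set the values of these genes in the SIN (40 mg/kg) group. MSTRG.15005 had a log2 fold change of 4.36 over DN and 4.82 over SIN (20 mg/kg), and 0.20 and 0.68 without it. The summed level of the 13 retrovirus-type genes was 56.4 to 64.2 CPM in normal rats, 22.7 to 37.9 in DN rats, 28.1 to 50.8 in SIN (20 mg/kg) rats, and 37.4, 34.3, 30.3 and 197 CPM in SIN (40 mg/kg) rats. The other 9 retrovirus-type genes summed to 51.6 to 58.8 CPM in normal and 20.5 to 31.2 CPM in DN rats, which did not overlap, and to 45.3 CPM in SIN (40 mg/kg) replicate 4, the highest of that group. The 88 LINE-1-type genes summed to 267 CPM in the same rat, also the highest of its group.

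The 67 genes with the GO term and a mean count below 10, which the rule left out, showed the same order of means. They summed to 18.2 CPM in normal, 7.73 in DN, 12.6 in SIN (20 mg/kg) and 12.6 in SIN (40 mg/kg) kidneys. Whether they share reads with the genes described here was not tested.

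Genes that silence or restrict retroelements were taken as a list of 42 symbols, of which 34 were tested. In edgeR's quasi-likelihood test with Benjamini-Hochberg adjustment, 3 were higher and 5 lower in DN, where 8.74% and 10.8% of all genes tested were. The median log2 fold change was 0.01. DESeq2 called 13 in DN, counted in either direction. The share of all genes that DESeq2 called is not given, so the 13 cannot be set against the shares by edgeR. Among the lower genes were Atrx, a chromatin remodeller that with Daxx deposits histone H3.3 at repeats (-0.94 ± 0.20, SE), Tasor (-0.74 ± 0.23) and Mphosph8 (-0.73 ± 0.21), subunits of the HUSH complex that silences young LINE-1 copies, and Dnmt3a, a DNA methyltransferase (-0.42 ± 0.10). Higher were Rnaseh2a, the catalytic subunit of ribonuclease H2 (0.66 ± 0.14), Trim28, the corepressor of zinc finger repressors (0.37 ± 0.09), and the histone methyltransferase Ehmt2 (0.30 ± 0.09). In the SIN groups over DN 0 were called at either dose, with 5 higher and 4 lower at an unadjusted p under 0.05 at 20 mg/kg (9.2% and 6.24% of all genes tested) and 4 and 1 at 40 mg/kg (9.9% and 7.21%), while DESeq2 called 1, Atrx, at each dose. Atrx had log2 fold changes of 0.91 ± 0.22 and 0.75 ± 0.19 over DN, with adjusted p-values of 0.27 and 0.187 in edgeR's quasi-likelihood test.

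Sensors of nucleic acids in the cytosol and their signalling partners, which can respond to retroelement RNA or cDNA, had 12 tested genes. In DN 2 were lower, Eif2ak2, the RNA-dependent kinase PKR (-0.78 ± 0.18), and Tbk1, a kinase of interferon induction (-0.56 ± 0.13), 0 were higher, and the median was -0.40, where 10.8% of all genes tested were lower. Over DN the medians were 0.28 at 20 mg/kg and 0.33 at 40 mg/kg, with 0 called in edgeR's quasi-likelihood test, 3 higher at an unadjusted p under 0.05 at each dose (9.2% and 9.9% of all genes tested), and 1 called by DESeq2, Tbk1 at 40 mg/kg. Genes of the host derived from retroelements gave 1 call among 8 tested, Nynrin, which carries a retroviral integrase-like domain and was higher in DN (0.44 ± 0.13, adjusted p = 0.0375 by the same test). Of 6 nuclear long noncoding RNAs only Snhg11 was in the table, with a log2 fold change of -0.42 ± 0.55 in DN.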

How the data were processed

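Kidney RNA of 16 rats was selected by oligo(dT), made into TruSeq libraries and sequenced on an Illumina platform. The submitters' processing notes name TopHat, Bowtie, RSEM and edgeR. The authors deposited 1 table of estimated counts per gene, before normalization, with annotation. Columns were joined to rats by library number. The columns of 4 libraries that no sample record names and of group means were not used.

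Counts were rounded and tested with edgeR 4.0.16 (quasi-likelihood, TMM, filterByExpr within each pair of groups, R 4.3.3), two-sided, with Benjamini-Hochberg adjustment over all genes tested. CPM values of single rats used TMM factors over the 16 rats. The records number the samples of a group without naming animals, so p-values measure the spread between these samples, which may be partly technical. Alternatives were DESeq2 1.42.0, RLE factors, library totals, unrounded counts, no filter, at least 10 counts in every rat, a fit of all 16 rats, a replicate block, and leaving out each rat. Steps were run on simulated independent whole counts without reads shared among copies, so this did not test them for such genes.

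The genes and lists were chosen with earlier results of these data known. Genes named with values were the 12 smallest adjusted p-values, the 5 most abundant, the 3 smallest unadjusted p-values per comparison and those next to the count limit. Positions and sequences of the genes were not used here. Of the genes called in the list of silencing and restriction genes, 1 is counted but not reported here.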

Additional observations from a re-analysis of the deposited data

Results flagged for a closer look

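In 10 of 108 groups of 4 rats examined, over the named genes and the summed levels, 1 rat was separated from the other 3 by a gap whose share of the group's whole range was above Dixon's 95% critical value for 4 samples. For independent, normally distributed values chance flags about 1 in 20 groups. Here genes share reads, some values lie at 0 and the sums contain flagged genes, so that rate need not hold. Over all 102 genes it was 30 of 408 groups. SIN (40 mg/kg) replicate 4 stood apart at 80.1 CPM in MSTRG.15005 (others at most 1.59), at 4.74 CPM in MSTRG.7194 (others at most 2.20), at 0.670 CPM in AC243566.1 (others at most 0.0467) and at 197 CPM in the summed retrovirus-type genes (others at most 37.4). SIN (40 mg/kg) replicate 3 was low in AABR07064257.1 at 5.83 CPM, and normal replicate 2 was low in the same gene at 12.4 CPM. AC111632.2 was high in DN replicate 3 at 2.58 CPM and AABR07034592.1 in DN replicate 1 at 0.663 CPM. MSTRG.2249 was high in SIN (20 mg/kg) replicate 1 at 4.69 CPM, and MSTRG.1562 in normal replicate 3 at 10.3 CPM. Over all 102 genes, SIN (40 mg/kg) replicate 4 and DN replicate 3 were each set apart as the high rat in 6 genes.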

How the results depend on the processing

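The count of genes lower in DN was 43 and ran from 12 to 49 when each rat was left out in turn. In SIN (20 mg/kg) over DN the 19 genes with an unadjusted p under 0.05 became 29 in a fit of all 16 rats and ran from 5 to 36 without single rats. In SIN (40 mg/kg) over DN the count at an adjusted p under 0.05 was 0, 1 by DESeq2 and 0 to 1 without single rats, and the unadjusted count of 29 became 16 with at least 10 counts in every rat and ran from 11 to 37 without single rats. Between the doses the unadjusted count of 5 became 3 by DESeq2, 8 without a filter, 2 with at least 10 counts in every rat and 8 in a fit of all 16 rats, and ran from 3 to 7 without single rats. Fewer genes were tested under the stricter filter, and other causes were not tested. The shares of all genes tested are not given for these settings. Replicate numbers share only a name, with correlations of same-numbered rats' deviations of -0.25 to 0.06. With the number as a replicate block, the calls in DN were 26, and the unadjusted counts were 13 and 17 in the SIN groups over DN and 3 between the doses; the sign of MSTRG.16391 between the doses turned, from -0.05 to 0.13.

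Leaving out 1 rat turned the sign of differences near 0 that no setting called. In DN over normal this was MSTRG.15005 (-0.70 to 0.057), and in SIN (20 mg/kg) over DN MSTRG.13109 (-0.24 to 0.030) and MSTRG.1562 (-1.06 to 0.15). Between the doses it was MSTRG.16391 (-0.36 to 0.21), MSTRG.7194 (-0.62 to 0.046), MSTRG.6589 (-0.18 to 0.13), AABR07039778.1 (-0.40 to 0.076), MSTRG.16348 (-0.11 to 0.33), AABR07015639.1 (-0.57 to 0.0095), MSTRG.21220 (-0.17 to 0.25), MSTRG.39 (-0.074 to 0.41) and AABR07053179.1 (-0.14 to 0.43). Over the named genes, 1252 values kept direction and side of the threshold, 26 turned sign, 16 lost a call and 3 gained one. Low counts and shared reads limit single copies.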
